A study of Homo sapiens with 6 samples.

Results

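Iron storage and uptake genes were examined in LX2 cells after knockdown of SHMT2, the mitochondrial serine hydroxymethyltransferase. The 8 genes were taken by name from the 60623 rows of the deposited expression table: the ferritin chains FTL and FTH1, the importers TFRC and SLC11A2, the exporter SLC40A1, the iron regulatory proteins ACO1 and IREB2, and the ferritin receptor NCOA4. LX2 is an established line of human hepatic stellate cells, the liver cells that make scar matrix. All 6 libraries came from LX2 cells in medium with 2% fetal bovine serum, transfected for 36 h. The 3 control libraries received the siRNA named siNC and carry the genotype label WT, and the other 3 received siSHMT2 and carry the label SHMT2 knockdown. Whether the replicates of a group were grown apart is not in the labels, and the p-values below may therefore reflect technical spread alone.

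Cells take up transferrin-bound iron through the transferrin receptor, and the divalent metal transporter encoded by SLC11A2 moves iron from the endosome into the cytosol. Iron that is not used is stored in ferritin, a shell of heavy and light chains, and NCOA4 delivers ferritin to the lysosome when iron is needed. When iron is scarce, the RNA-binding proteins IRP1 (ACO1) and IRP2 (IREB2) bind stem-loops called iron-responsive elements. Binding in the 5′ UTR blocks translation of ferritin and ferroportin mRNA, while binding in the 3′ UTR protects the TFRC mRNA from decay. In liver, iron overload is a known companion of scarring, which stellate cells carry out.

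The matched elements are printed here because the regulatory proteins act through such sites on the ferritin, ferroportin and transferrin receptor mRNAs. The other 4 genes held no full match by the search used, which does not show that they lack an element. A script searched annotated UTRs of GENCODE release 29 on the transcript strand for a C, 5 bases of any kind and the loop CAGTGN, and asked that all 5 bases on either side of the loop pair (G with T allowed) and at least 3 of the next 5 beyond the bulged C. Of 9484 tested protein-coding genes searched, 6 (0.063%) held such a match in a 5′ UTR and 22 (0.232%) in a 3′ UTR. Elements with another loop sequence, or with an unpaired base on the 3′ side of the stem, would be missed by this search. Loops are in capitals, and positions are GRCh38.

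FTL, 5′ UTR, chr19:48965336-48965362, plus strand: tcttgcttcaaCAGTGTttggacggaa
FTH1, 5′ UTR, chr11:61967575-61967601, minus strand: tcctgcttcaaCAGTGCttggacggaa
SLC40A1, 5′ UTR, chr2:189580662-189580688, minus strand: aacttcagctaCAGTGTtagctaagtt
TFRC, 3′ UTR, chr3:196050980-196051006, minus strand: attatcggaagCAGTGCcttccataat
TFRC, 3′ UTR, chr3:196050576-196050602, minus strand: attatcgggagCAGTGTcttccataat
TFRC, 3′ UTR, chr3:196050511-196050537, minus strand: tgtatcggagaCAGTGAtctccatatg
TFRC, 3′ UTR, chr3:196050464-196050490, minus strand: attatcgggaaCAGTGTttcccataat

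The ferritin and ferroportin genes thus held the match before the coding sequence and TFRC held 4 after it. SLC11A2 held no match with a full stem under this search, which allowed no unpaired base after the loop. Its annotated 3′ UTRs held the bulged C and the loop at 4 places. The one with the most upper pairs lay at chr12:50988270-50988296, minus strand, with 4 of 5 upper and 1 of 5 lower bases paired. If a t after the loop is left unpaired, its upper stem pairs in full and its lower stem pairs further. The search therefore does not show that SLC11A2 lacks an element.

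SLC11A2, 3′ UTR: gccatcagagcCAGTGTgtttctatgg

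The bulged C and loop without the stem are common, in the 3′ UTR of 42.1% of the genes searched, and ACO1, IREB2 and FTH1 also held them there. A match describes letters and does not show that a protein binds.

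**Figure D1:**
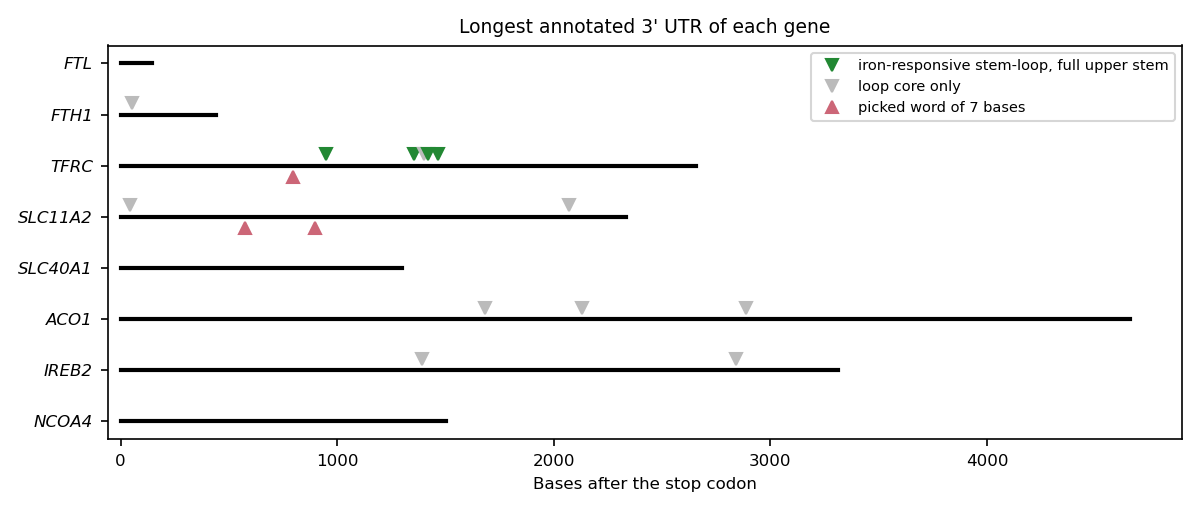
Longest annotated 3′ UTR of each of the 8 genes, drawn to scale as bases after the stop codon. Marks above each line are full stem-loops matched by the search (green) or the bulged C and loop without a full stem (grey). Marks below it are 2 words of 7 bases. TFRC carries 4 full stem-loops between bases 936 and 1478, and of the 8 genes only TFRC and SLC11A2 hold a word.

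SHMT2 was 40.8, 56.3 and 45.1 FPKM (fragments scaled by gene length and library total) in the siNC libraries and 2.25, 2.10 and 2.42 in the siSHMT2 libraries, so the knockdown was present in each of the latter (exact permutation test, two-sided, p = 0.1, the smallest that 3 against 3 allows). The libraries held 14722344 to 15669139 recovered reads. Of the stellate and fibroblast markers 7 of 10 passed the filter described next, led by TIMP1; LRAT was listed at 0 in every library, and ACTA2 averaged 0.427 and 0.782 FPKM in siNC and siSHMT2. The 6 hepatocyte markers summed to between 0.298 and 1.35 FPKM in any library, and the leukocyte gene PTPRC averaged 0.00416 and 0.00439, while CD14, listed with the macrophage markers, averaged 16.8 and 13.8. Summed stellate marker FPKM ranged from 1662 to 2549 among siNC libraries and from 1266 to 1475 among siSHMT2 libraries, and the macrophage sum from 14.3 to 19.2 and from 13.2 to 15.1. The stellate sum rests mostly on TIMP1 (990.4 and 654.4 on average, not called, limma adjusted p = 0.258) and VIM (823.3 and 500.7). VIM was the only one of the 7 tested stellate markers that was called (lower, limma adjusted p = 0.0191). COL1A2, COL3A1 and LOX had fold changes above 0, COL1A1 (-0.10) and PDGFRB (-0.20) had fold changes below 0, and none of these was called. Their part in the iron gene results was not tested.

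Cells given siSHMT2 held less RNA for the iron importers and for the ferritin receptor: TFRC was 28.9% of its siNC level, SLC11A2 44.9% and NCOA4 63.3%. No change was called for either ferritin chain or either iron regulatory protein. Genes with a mean of at least 1 FPKM were tested, and a gene was called where the limma p, adjusted over all 10865 of them (Benjamini-Hochberg), was below 0.05. Of the 8 genes 7 were tested. The call was lower for 3 of the 7, against 9.85% of all tested genes, and higher for 0, against 6.07%; at an unadjusted p below 0.05 limma gave 3 lower and 1 higher (ACO1), and voom on recovered reads called 3 lower and 0 higher. The groups did not overlap for 5 of the 7, against 36.4% of all tested genes. The median log2 fold change of the 7 was -0.40, beside 0.02 for all tested genes. In bulk RNA, less transcript per cell and fewer cells carrying it cannot be told apart.

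**Figure D2:**
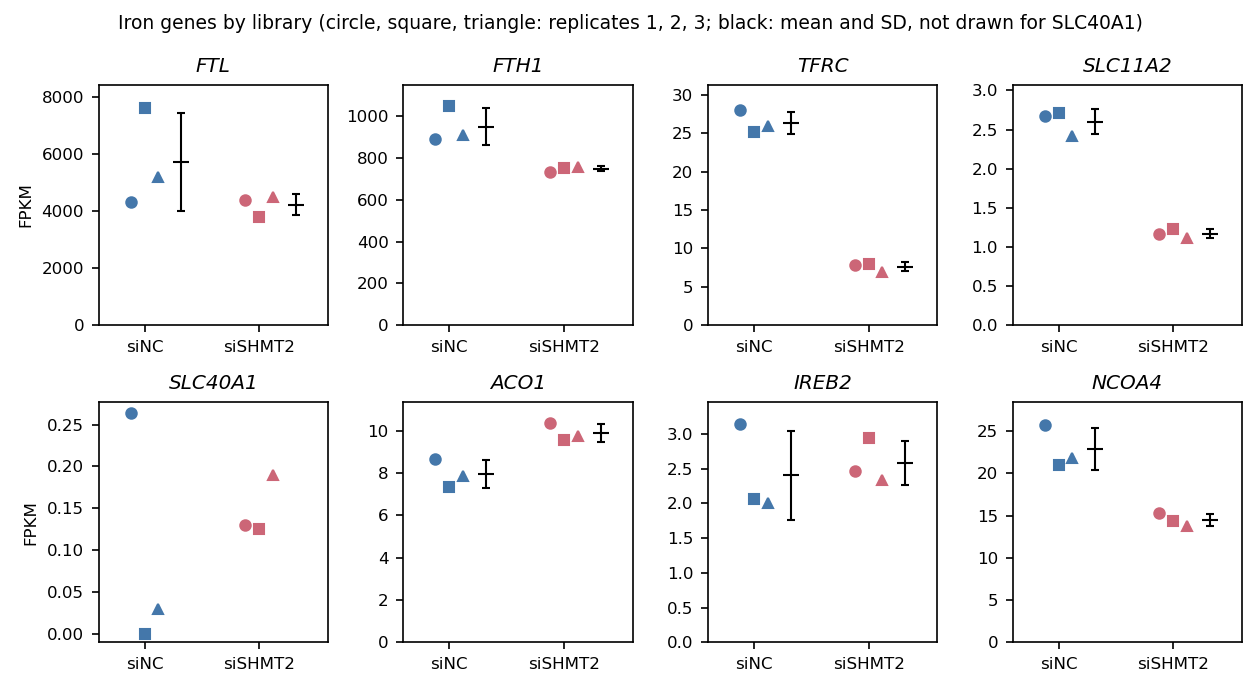
FPKM of each gene in the 3 siNC and 3 siSHMT2 libraries (points), each panel on its own linear axis. The mean and SD of each group are beside the points, except for SLC40A1, where they are not drawn. TFRC, SLC11A2, NCOA4 and FTH1 were lower and ACO1 higher in all 3 siSHMT2 libraries, while FTL, IREB2 and SLC40A1 overlapped.

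TFRC (ENSG00000072274, chromosome 3, 196027183 to 196082096, minus strand) encodes the transferrin receptor, the main entry of iron into dividing cells. Its level was 28.0, 25.2 and 25.9 FPKM in the siNC libraries and 7.88, 8.02 and 6.97 in the siSHMT2 libraries. Every siSHMT2 library thus lay far below every siNC library, and replicates of a group lay close together. These values rested on 2842 to 3812 reads in siNC and 859 to 1036 in siSHMT2. The siNC mean was 3.46 times the siSHMT2 mean, and the log2 fold change, on the log2(FPKM + 1) scale used for all fold changes here, was -1.67 (SE 0.0997, limma adjusted p = 0.000128).

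SLC11A2 (ENSG00000110911, chromosome 12, 50979401 to 51028566, minus strand) encodes the divalent metal transporter DMT1. It was a low transcript, at 2.68, 2.72 and 2.42 FPKM in siNC and 1.16, 1.23 and 1.11 in siSHMT2, from 376 to 463 and 174 to 202 reads. All 3 siSHMT2 libraries were below all siNC libraries, and the gap was wider than the spread within either group. SLC11A2 fell by 0.73 on the log2 scale (SE 0.101, limma adjusted p = 0.0031). Added to so low a level, the pseudocount of 1 shrinks the difference: voom on recovered reads gave -1.16. The table sums all isoforms, so transcripts with and without the 3′ loop are not separated.

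NCOA4 (ENSG00000266412, chromosome 10, 46005088 to 46030714, minus strand) encodes the receptor that carries ferritin to autophagosomes. Its level was 25.8, 21.1 and 21.9 FPKM in siNC and 15.3, 14.4 and 13.8 in siSHMT2. The siSHMT2 libraries lay close together and below all siNC libraries. NCOA4 fell by 0.62 on the log2 scale (SE 0.111, limma adjusted p = 0.00898). That call was lost without siSHMT2 replicate 3 (log2 fold change -0.59, limma adjusted p = 0.0524) and after rescaling to TPM (-0.55, 0.0687). On the TPM scale the log2 fold change over all tested genes had a median of 0.109, and 686 genes were higher and 620 lower, against 659 and 1070 on the FPKM scale. Scaling by read sums gave 796 and 767. Measured from that median, NCOA4 was at -0.66 on the TPM scale and -0.64 on the FPKM scale.

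FTL (ENSG00000087086, chromosome 19, 48965309 to 48966879, plus strand), the ferritin light chain, was among the most abundant transcripts in the table, ranking 7 by mean FPKM. It stood at 4327, 7622 and 5190 FPKM in siNC and at 4379, 3806 and 4484 in siSHMT2. The groups overlapped, since siNC replicate 1 lay below siSHMT2 replicates 1 and 3. The log2 fold change was -0.40 (95% interval -0.99 to 0.19, limma adjusted p = 0.344), and without siNC replicate 2, the highest library, it was -0.17. In that library the total behind the FPKM was also smallest relative to its reads (0.957 times, against 1.02 to 1.13 in the other 5), and FTL gave -0.30 when rescaled to TPM and -0.32 when scaled by read sums.

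FTH1 (ENSG00000167996, chromosome 11, 61959718 to 61967634, minus strand), the heavy chain with the ferroxidase site, ranked 37 by mean FPKM. Its values were 891, 1051 and 909 FPKM in siNC and 735, 753 and 757 in siSHMT2. All 3 siSHMT2 libraries lay below all siNC libraries and were close together (SD 11.9, against 87.8 in siNC). The log2 fold change of -0.34 was not called (SE 0.148, 95% interval -0.68 to 0.0029, limma adjusted p = 0.168).

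Light chain RNA exceeded heavy chain RNA per length in every library. The FTL to FTH1 ratio of FPKM was 4.86, 7.25 and 5.71 in siNC and 5.96, 5.05 and 5.92 in siSHMT2, with means of 5.94 ± 1.21 and 5.64 ± 0.513 (SD, n = 3). The ratio thus differed by less than the spread within siNC. Ferritin genes have many processed copies, among which reads can be shared. The table lists 24 rows named FTH1P and a number, and 16 named FTLP. Together the FTH1 copies held 960 to 1661 reads per library, 3.90% to 5.44% of those of FTH1, led by FTH1P8 and FTH1P7, and the FTL copies held 0.0259% to 0.0645% of those of FTL. With copies added to the parent gene, FTH1 gave -0.35 and FTL -0.40. BEST1, which overlaps FTH1 on the opposite strand, held 36 to 49 reads, and without known strand use the reads of the pair cannot be told apart.

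SLC40A1 (ENSG00000138449, chromosome 2, 189560579 to 189583758, minus strand) encodes ferroportin, the only known cellular iron exporter. It lay below the filter, with 20, 0 and 2 reads in the siNC libraries (0.264, 0 and 0.0293 FPKM) and 9, 9 and 13 in the siSHMT2 libraries (0.130, 0.125 and 0.190 FPKM). A difference was not detectable at this depth, and no fold is given.

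The iron regulatory proteins were measured at low to moderate levels. ACO1 (ENSG00000122729, chromosome 9, 32384603 to 32454769, plus strand) encodes IRP1, which acts as an aconitase when it holds an iron-sulfur cluster. It was 8.68, 7.33 and 7.89 FPKM in siNC and 10.4, 9.59 and 9.76 in siSHMT2. All siSHMT2 libraries were above all siNC libraries, but the log2 fold change of 0.29 (SE 0.0972) was not called (limma adjusted p = 0.0883). IREB2 (ENSG00000136381, chromosome 15, 78437431 to 78501453, plus strand) encodes IRP2, which is degraded when iron is plentiful. Its values of 3.14, 2.07 and 2.00 FPKM in siNC overlapped those of 2.46, 2.94 and 2.34 in siSHMT2. The log2 fold change was 0.09 (95% interval -0.26 to 0.43, limma adjusted p = 0.742).

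**Figure D3:**
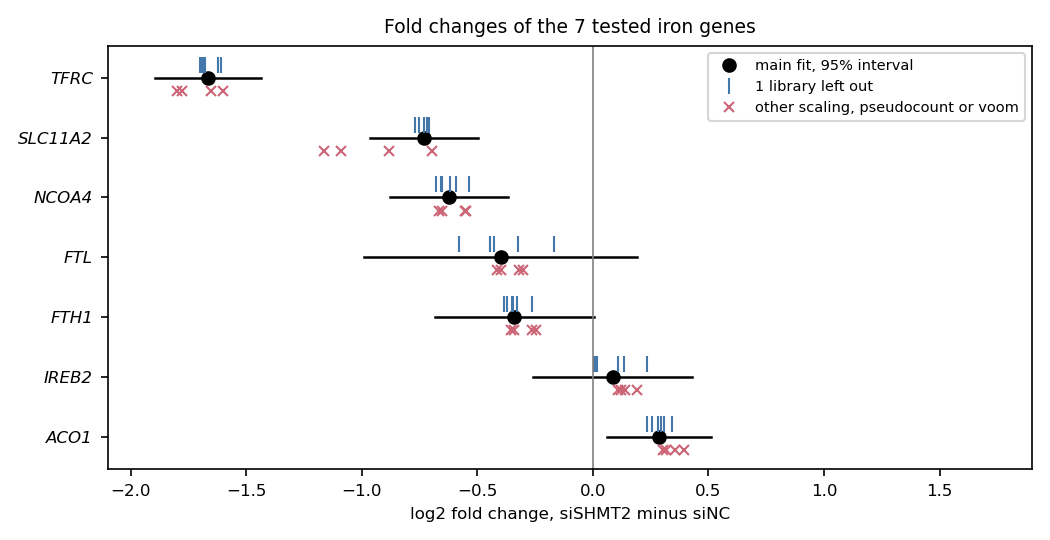
Log2 fold change of the 7 tested genes with 95% intervals (black), with 1 library left out (blue ticks) and under other scalings, pseudocount or voom (red crosses). TFRC and SLC11A2 stay well below 0 throughout, and the intervals of FTL, FTH1 and IREB2 reach 0 or beyond.

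Ordered by level per length, the siNC libraries had FTL above FTH1, then TFRC and NCOA4, ACO1, SLC11A2 and IREB2, and SLC40A1. TFRC (25.2 to 28.0 FPKM) and NCOA4 (21.1 to 25.8) overlapped there, as did SLC11A2 (2.42 to 2.72) and IREB2 (2.00 to 3.14). In the siSHMT2 libraries the order was NCOA4 (13.8 to 15.3), ACO1 (9.59 to 10.4) and TFRC (6.97 to 8.02), with no overlap between neighbours. IREB2 (2.34 to 2.94) was above SLC11A2 (1.11 to 1.23) in that group.

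The 3′ UTRs were also searched for GACTTTA and ACTTTAA, 2 words that an earlier analysis of these same libraries had picked because genes holding them tended to be lower in siSHMT2. Either word occurs in 24.6% of 9386 tested genes searched. Of the 3 iron genes called lower, TFRC and SLC11A2 held both words and NCOA4 held neither, and the 4 tested genes that were not called held neither. The sites are shown because they sit in the same 3′ UTRs as the loops above, with the words in capitals.

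TFRC, chr3:196051134-196051161, minus strand, word from base 791 after the stop codon: cagtttgtcaGACTTTAAagaataatat
SLC11A2, chr12:50987736-50987762, minus strand, word from base 573: acttatttccACTTTAAtttctcagtg
SLC11A2, chr12:50987413-50987440, minus strand, word from base 895: ggggagaaaaGACTTTAAgggaggagag

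In TFRC the word site ended 137 bases before the first stem-loop began. Because the words were chosen on these fold changes, their presence is a description, and their part in the falls of TFRC and SLC11A2 was not tested. The searched 3′ UTRs differ in length, from 143 bases in FTL and 442 in FTH1 to 2658 in TFRC and 4658 in ACO1.

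The wider iron pathway was described with 8 lists of 93 genes taken from textbook roles, of which 69 were tested. By limma 10 were lower (14.5%) and 3 higher (4.35%), beside 9.85% and 6.07% of all tested genes, and the median log2 fold change of the 69 was 0.02. Either word was held by 6 of the 10 lower genes (SLC39A14, CYBRD1, FBXL5, CIAO1, BACH1 and NQO1), 1 of the 3 higher (NFS1) and 11 of the 56 not called, FECH among them. Over all tested genes searched the share was 24.6%. The words were picked on the fold changes of these same libraries, and 3′ UTR lengths differ. The counts are therefore a description and no independent support. With all genes tested and no filter, the calls of STEAP1, CYBRD1, ERFE and CIAO1 given next were lost (limma adjusted p from 0.0785 to 0.0843).

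Other genes of iron import had 3 of 7 tested members lower (42.9%, beside 9.85% of all tested genes), with a list median of -0.19. SLC39A14, the zinc and iron importer ZIP14, was 11.3, 10.1 and 11.3 FPKM in siNC and 5.49, 6.23 and 5.21 in siSHMT2, and fell by 0.84 on the log2 scale (SE 0.102, limma adjusted p = 0.00179). Its siSHMT2 libraries were all well below its siNC libraries. STEAP1, of a family of metalloreductases, fell by 0.81 (limma adjusted p = 0.0171) and CYBRD1, a ferric reductase, by 0.58 (0.0215). STEAP3, the endosomal ferric reductase that works beside TFRC and DMT1, was 13.4 ± 1.27 and 11.7 ± 0.888 FPKM (SD, n = 3, limma adjusted p = 0.295). Dropping siNC replicate 3, siSHMT2 replicate 1 or siSHMT2 replicate 3 ended the STEAP1 call (limma adjusted p = 0.0592, 0.0695 and 0.0551). That of CYBRD1 was lost without siSHMT2 replicate 1, 2 or 3 (0.0806, 0.0618 and 0.0871), with TPM (0.121) and with scaling by read sums (0.0749).

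Iron export and hepcidin genes were mostly below the filter (9 of 12), among them hepcidin itself (HAMP), ceruloplasmin (CP) and hephaestin (HEPH). ERFE, known as an erythroid suppressor of hepcidin, fell from 5.90 ± 0.948 to 3.78 ± 0.265 FPKM (SD, n = 3, limma adjusted p = 0.0239). The ERFE call was lost without siSHMT2 replicate 1, 2 or 3 (adjusted p = 0.109, 0.0685 and 0.0778) and with TPM (0.0763). HFE and NEO1, the other tested members, were not called (0.696 and 0.339).

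Among iron chaperones and the machinery that degrades IRP2, 1 of 8 tested members was lower (12.5%, beside 9.85% of all tested genes). FBXL5, the iron-sensing adaptor that marks IRP2 for degradation, was 13.7, 9.85 and 13.0 FPKM in siNC and 7.35, 6.49 and 6.69 in siSHMT2 (log2 fold change -0.74, SE 0.133, limma adjusted p = 0.00924). The groups did not overlap. With TPM its adjusted p was 0.0506. SKP1, which shares the ligase with FBXL5, was 28.9 ± 5.00 and 20.3 ± 1.56 FPKM (SD, n = 3, limma adjusted p = 0.0543). The iron chaperone PCBP2 and the glutaredoxin GLRX3 were not called (0.498 and 0.328).

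Of 4 other transcripts known for an iron-responsive element, 2 were tested. EPAS1, the hypoxia factor HIF-2 alpha, was 4.95 ± 0.623 and 5.19 ± 0.444 FPKM (SD, n = 3, limma adjusted p = 0.759), and CDC42BPA was not called (0.867).

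Mitochondrial iron-sulfur assembly had 2 of 17 tested members higher (11.8%, beside 6.07% of all tested genes) and a median of 0.05. NFS1, the cysteine desulfurase that supplies the sulfur, was 7.45, 7.61 and 7.66 FPKM in siNC and 13.9, 12.4 and 12.4 in siSHMT2 (log2 fold change 0.69, SE 0.0914, limma adjusted p = 0.00257). ISCA1, a later scaffold, rose by 0.64 (limma adjusted p = 0.00704). The carrier SLC25A28 and NUBPL, an assembly factor of complex I, were not called (0.0637 and 0.0664). In the cytosolic assembly pathway 1 of 9 was lower (11.1%, beside 9.85% of all tested genes). CIAO1 fell from 37.5 ± 5.28 to 25.9 ± 1.28 FPKM (SD, n = 3, limma adjusted p = 0.0315). That call was lost without siNC replicate 3 (0.0685) and on dropping siSHMT2 replicate 1, 2 or 3 (0.143, 0.108 and 0.0902). CIAO2A, CIAO2B and NDOR1 were not called (0.245, 0.212 and 0.0854).

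Heme genes had 1 of 14 tested members higher (7.14%, beside 6.07% of all tested genes). BLVRA, a biliverdin reductase, rose from 22.3 ± 1.17 to 29.9 ± 1.65 FPKM (SD, n = 3, limma adjusted p = 0.032). The BLVRA call was lost without siNC replicate 3 (0.0543), without siSHMT2 replicates 1, 2 or 3 (0.106, 0.136 and 0.126) and with TPM (0.0502). FECH, which inserts iron into heme, was 2.11 ± 0.444 and 3.39 ± 0.602 FPKM (SD, n = 3, limma adjusted p = 0.0582), and CPOX and the transporter FLVCR2 were not called (0.0762 and 0.123).

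Ferritin genes are also driven by the antioxidant response element. Of 9 tested genes in a list of its regulators and targets, 4 were lower (44.4%, beside 9.85% of all tested genes). NFE2L2, the activator NRF2, was 6.89, 5.40 and 4.66 FPKM in siNC and 2.71, 3.08 and 2.63 in siSHMT2 (log2 fold change -0.79, SE 0.136, limma adjusted p = 0.0077). BACH1, the repressor that competes at the same element, fell by 0.63 (limma adjusted p = 0.00465), and the small MAF protein MAFF by 0.85 (0.00226). NQO1, a classical NRF2 target, was 24.7, 35.4 and 28.4 FPKM in siNC and 15.3, 14.2 and 15.3 in siSHMT2, and fell by 0.92 (SE 0.140, limma adjusted p = 0.00465). Groups did not overlap for these 4 genes of the 9 tested, beside 36.4% of all tested genes. The other 5 tested members were not called and their groups overlapped: the targets GCLM (-0.08, limma adjusted p = 0.801) and TXNRD1 (-0.17, 0.376), the small MAF proteins MAFG (0.02, 0.936) and MAFK (0.40, 0.217), and KEAP1, the inhibitor of NRF2 (0.17, 0.348). With TPM the adjusted p of BACH1 was 0.0519. HMOX1, counted in the heme list and not in this one, averaged 21.4 FPKM in siNC and 22.9 in siSHMT2. It was not called (log2 fold change 0.10, limma adjusted p = 0.59).

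**Figure D4:**
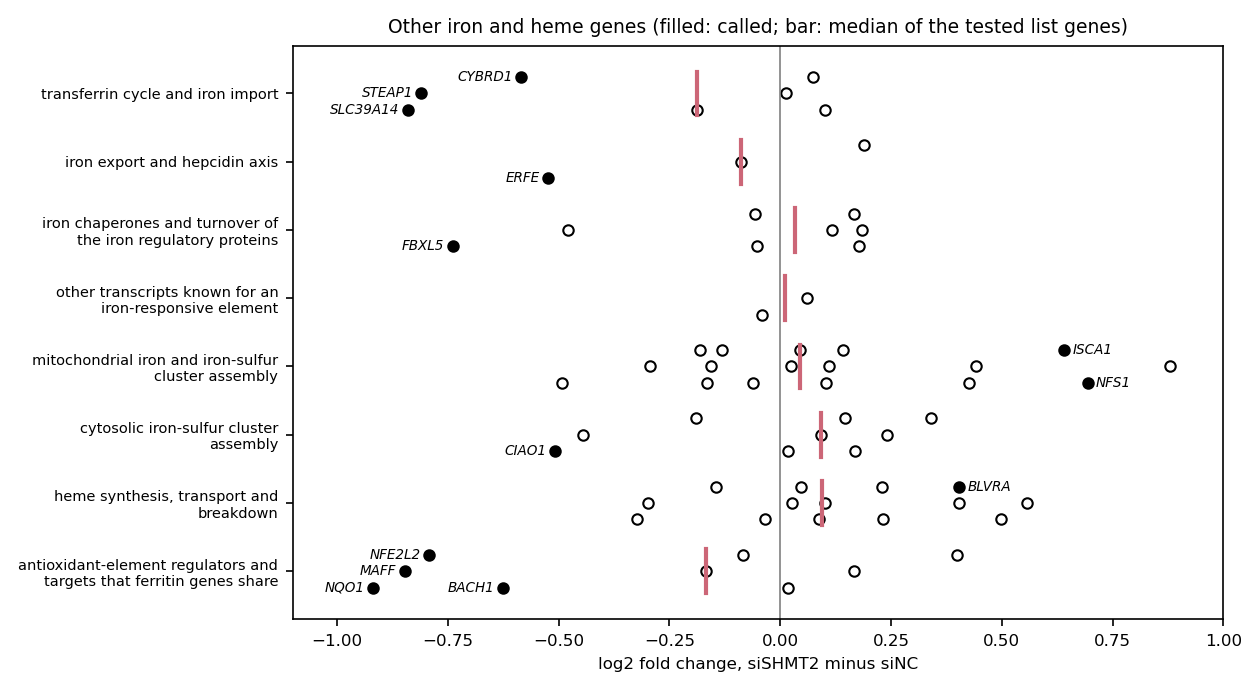
Log2 fold change of the 69 tested genes of the 8 wider lists, with called genes filled and named and the median of each list as a bar. Lower calls number 3 of 7 in iron import and 4 of 9 in the antioxidant element list, beside 9.85% of all tested genes, and list medians lie between -0.19 and 0.09.

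Genes that varied most like TFRC, FTL and FTH1 were taken as the 3 tested protein-coding genes with the highest Pearson correlation of log2(FPKM + 1) over the 6 libraries, as a description. For TFRC they were IL7R, MMD and BMT2 (each r = 0.999), where the points fall into the 2 groups, so that r mostly restates the group difference: MMD was 4.14 and 1.24 FPKM on average in siNC and siSHMT2. For FTH1 they were GLRX, OAS2 and EIF1AD (r = 0.999, 0.997 and 0.995). These 3 genes, like FTH1, were highest in siNC replicate 2. Their groups did not overlap, so r partly restates the group difference there too. For FTL they were FAM110A, ARHGAP10 and NAA60 (r = 0.998, 0.997 and 0.997), all highest in siNC replicate 2, as FTL was. The points share libraries and their scaling totals.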

How the data were processed

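The authors deposited 1 table of FPKM values per gene and library. The submitters' processing notes list HISAT2 2.0.5, featureCounts 1.5.0-p3 and hg18, and per the labels' protocols libraries came from Trizol-extracted RNA and a SMARTer mRNA kit. Table coordinates matched GRCh38: 99.9% of 58561 genes shared with GENCODE release 29 overlapped it, all 8 genes described included. Strand use and the treatment of shared reads are not given in the sources used here. FPKM times gene length fell on whole multiples of 1 step (tolerance 0.02), which gave back reads.

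After a filter at a mean of 1 FPKM, genes were fitted with limma 3.58.1 (R 4.3.3, trended variances) on log2(FPKM + 1), all 6 libraries, siSHMT2 minus siNC. Fits were tested on simulated data with the same spread set for every gene, which real genes do not share. That spread was a chosen value and was not estimated from these libraries, so the shares called need not hold for them. Calls were made for 13.4% of genes changed 1.5-fold, 67.2% of those changed 2-fold and 0.116% of unchanged genes. A gene that was not called may thus still have changed by a small fold. Alternatives covered pseudocount, filter, scaling, voom with a TMM factor, biotype, array weights, a replicate block, ferritin copies and each library left out. The genes, lists and tests were chosen with earlier results of these data known. Up to 4 genes per list with the smallest adjusted p were named. All tested members of the antioxidant element list and HMOX1 of the heme list were named as well. UTRs were searched in Python 3.11.15. An item of the lists is not reported here.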

Additional observations from a re-analysis of the deposited data

How the results depend on the processing

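TFRC and SLC11A2 kept direction and call in every alternative that tested them, with log2 fold changes from -1.80 to -1.60 and from -1.16 to -0.68 (SLC11A2 drops out at a mean FPKM of at least 5, as does IREB2). NCOA4 ran from -0.68 to -0.54 with a library left out and was not called with TPM (-0.55). Array weights favoured siSHMT2 replicate 1 (weight 4.94) and, within siNC, replicate 3 (2.68, against 0.305 and 0.263 for replicates 1 and 2). With these weights FTH1 (-0.31) and ACO1 (0.33) were called, so 1 of the 8 genes was higher. Other fits called 0 higher and 2 or 3 lower. In the wider lists 6 genes were lower without a filter and 19 with array weights, and 6 to 12 with a library left out; 6 were higher with voom, 6 among protein-coding genes only, 8 with array weights and 2 to 5 with a library left out (5 without siNC replicate 1 or 3). Over all genes, calls were 333 higher and 603 lower without a filter, 455 and 618 at a mean FPKM of at least 5, 1827 and 1976 with array weights, and 229 to 729 and 498 to 1132 with a library left out, fewest without siSHMT2 replicate 1. The causes were not tested.

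Deviations from the group means of same-numbered libraries correlated at -0.0183, -0.349 and 0.243, and not every library correlated best with its own number. Deviations of 3 libraries from their own mean are tied to each other. These values therefore cannot decide whether replicate numbers pair the libraries. With the replicate block, calls over all genes went from 659 higher and 1070 lower to 374 and 696, and the same 3 iron genes were called, TFRC at -1.67; in the wider lists CIAO1 and BLVRA were not (limma adjusted p = 0.0688 and 0.103). Depth limits SLC40A1, which had 0 to 20 reads per library.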
